A study of Mus musculus with 18 samples.

Results

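The 6 MS4A genes of cultured mouse microglia described here are Ms4a4a, Ms4a4c, Ms4a6b, Ms4a6c, Ms4a6d and Ms4a7, each followed through every group of the study. They were taken as the rows of the deposited count table that carry these gene names, 6 of 54532 rows, and all 6 passed the filter on low counts. The genes were chosen by their levels over the 6 groups, seen in earlier results of these libraries, so their levels, changes and calls below are descriptions and support nothing. Primary microglia were harvested from pups of postnatal day 0 to 3, kept in mixed culture for 10 days, isolated and plated. RNA was sequenced in 18 libraries, 6 groups of 3.

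The genotype labels were mTrem2 +/+, called Trem2+/+ here, and hTrem2 R47H/+, called R47H/+. R47H is a coding variant of TREM2, a lipid-sensing receptor of microglia, that raises the risk of Alzheimer's disease. MK-2206 blocks the kinase Akt. Cells were held for 6 h in 0.01% DMSO or in MK-2206 at 1 uM before 1 ug/ml of 0N4R tau fibrils or none were added. The groups were Trem2+/+ without and with tau, R47H/+ without and with tau, and R47H/+ with MK-2206 without and with tau. MK-2206 was not given to Trem2+/+ cells. The time in tau, the sex of the pups, and whether replicates were separate cultures or pups were not given in the sources used here, so the errors measure only the spread between these libraries.

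MS4A proteins are small tetraspan membrane proteins, many of them found in the plasma membrane or endosomes of immune cells. The best known members are MS4A1 (CD20) of B cells and MS4A2, the beta chain of the high-affinity IgE receptor of mast cells. The MS4A4 and MS4A6 genes and MS4A7 are expressed mainly in macrophages, and the human locus that holds them is associated with Alzheimer's disease risk and with the level of soluble TREM2 in cerebrospinal fluid. In the mouse, Ms4a4 and Ms4a6 are each present as several neighbouring copies, and Ms4a4c is often listed among interferon-induced genes.

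The levels of Ms4a4c, Ms4a6b, Ms4a6c and Ms4a6d moved together through the 6 groups: they were lowest in Trem2+/+ cells, higher in R47H/+ cells and highest in the groups with tau. Ms4a4a moved otherwise: its highest libraries were R47H/+ cells with MK-2206 and no tau, and tau went with a higher level in Trem2+/+ cells but a lower one in R47H/+ cells. Ms4a7 was expressed in every group, and its changes depended on a pair of libraries described next.

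Library totals lay between 16288531 and 20686299 counts. Levels are CPM, a gene's counts scaled to a common library size after TMM scaling, values are listed in the order of replicates 1, 2 and 3, and a change is called where the edgeR quasi-likelihood test had a Benjamini-Hochberg adjusted p under 0.05 over the 13267 genes tested. The row of the mouse gene Trem2 measured 935 to 1894 CPM in Trem2+/+ and 451 to 489 CPM in R47H/+ cells. With tau these were 375 to 481 and 128 to 243 CPM. Under MK-2206, R47H/+ cells held 503 to 551 CPM of Trem2, and 154 to 183 CPM once tau was added. Whether reads of a human Trem2 sequence would be counted in this row is not given in the sources used here. A pair of libraries, Trem2+/+ replicate 3 and R47H/+ tau replicate 2, departed from their group by gene length: the level dropped with length at a slope of -1.39 and -0.73 (log2 CPM for each 10-fold step in length), so that shorter genes stood higher. The slopes of the other 16 libraries lay between -0.17 and 0.14. Calls of the 6 genes and counts of the gene lists that differ without both libraries are given with and without them, a choice made after seeing the data. Of the microglial list, 9 of 10 genes passed the count filter. Its summed level was 2431 to 3142 CPM in Trem2+/+ and 3242 to 3357 CPM with tau. In R47H/+ it was 3684 to 3787 CPM, 2721 to 3020 with tau, 2971 to 3158 with MK-2206 and 3560 to 3622 with both. In R47H/+ cells without tau, 6 genes of this list were called higher and 0 lower, beside 15.1% of all genes called. MK-2206 without tau went with 0 higher and 5 lower (2.55% of all genes called), and tau in R47H/+ cells with 1 and 5 (27.6%). Tau went with 2 and 3 in Trem2+/+ cells (26.5%) and with 4 and 2 under MK-2206 (25.6%). Without both libraries these were 4 and 4 (41.4%) and 4 and 3 (48.0%). With tau present, R47H/+ against Trem2+/+ gave 2 and 1 (9.5%) and MK-2206 gave 1 and 0 (3.04%). Without both libraries these were 3 and 2 (23.3%) and 2 and 1 (12%). The marker Csf1r was high in every group (1479 to 2705 CPM), whereas Tmem119 was at 0.312 to 2.52 CPM and Siglech at 0 to 0.223 CPM. Of the monocyte list, 5 of 6 genes passed the count filter. Its summed level was 21.8 to 55.6 CPM in the 9 libraries without tau and 197 to 309 CPM in the 9 with tau. Plac8 was at 0 to 0.171 CPM. Tau went with 3 of the list called higher and 1 lower in Trem2+/+ cells, 2 and 2 in R47H/+ cells, and 4 and 1 with MK-2206. Of all genes, 26.5%, 27.6% and 25.6% were called in these comparisons. Lists of astrocyte and oligodendrocyte lineage genes summed to 53.9 to 105.8 and 64.6 to 175 CPM over all libraries. Of the border macrophage list, 8 of 10 passed, and the sum was 2207 to 2856 CPM in Trem2+/+, 4834 to 5198 with tau, 4175 to 4315 in R47H/+, 2966 to 4905 with tau, 3028 to 3186 with MK-2206 and 4322 to 4930 with MK-2206 and tau, with Cd163, Lyve1 and Cd209f each under 1 CPM in all groups. Siglec1 made up much of this sum, with means of 499.7 CPM in Trem2+/+, 3043 with tau and 2249 in R47H/+ cells, whereas Mrc1 had means of 477, 334 and 462 CPM. In R47H/+ cells without tau, 1 gene of the list was called higher and 2 lower, with a median log2 change of -0.12, beside 15.1% of all genes called. Without both libraries with a shift by gene length, 2 were higher and 3 lower, beside 28.9%. These sums moved with several of the levels below, and their part in them was not tested. In bulk RNA, fewer cells of a type and less RNA per cell cannot be told apart.

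The 6 genes lie within 283.8 kb of chromosome 19 (GRCm38), in the order Ms4a7, Ms4a4a, Ms4a4c, Ms4a6c, Ms4a6b and Ms4a6d. Per the deposited table, Ms4a7 spans chr19:11321039-11336146 and Ms4a6d chr19:11586604-11604849, both on the minus strand. Ms4a4a lies at chr19:11375523-11392790, Ms4a4c at chr19:11404770-11427246, Ms4a6c at chr19:11469366-11482192 and Ms4a6b at chr19:11516512-11531256, all on the plus strand. All are protein-coding. The coding sequences of Ms4a6c and Ms4a6b were 86.4% identical over 641 aligned bases, those of Ms4a6b and Ms4a6d 81.8% over 729, and those of Ms4a6c and Ms4a6d 79.6% over 637. Ms4a4a and Ms4a4c, by contrast, shared 68.8% over 645 bases, and the other pairs 60.8% to 68.9%. Because copies this alike can share reads, the share of each gene's 50-base transcript words found in any other gene was counted. It was 10.5% for Ms4a6c, 8.19% for Ms4a4c, 3.57% for Ms4a6b, 2.54% for Ms4a6d and 0.306% for Ms4a7, and Ms4a4a had none. Among Ms4a genes, Ms4a6c shared most with Ms4a6b, and Ms4a4c with its neighbour Ms4a4b. How reads that fit several places were counted is not stated, so the levels of Ms4a6b, Ms4a6c and Ms4a4c are uncertain to an extent that was not tested.

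Stretches upstream of RefSeq start sites (GRCm38.p6) were read for the members, because 4 of them moved together and Ms4a4a did not. Of the 6 genes, 5 had an entry, Ms4a7 with 2 start sites, and Ms4a6d had none. The 250 bases before the start of Ms4a6c (chr19:11469118-11469367, plus strand) and of Ms4a6b (chr19:11518309-11518558, plus strand) are shown 5′ to 3′ because these neighbours share long identical runs; capitals mark runs of at least 15 bases found in both windows.
Ms4a6c: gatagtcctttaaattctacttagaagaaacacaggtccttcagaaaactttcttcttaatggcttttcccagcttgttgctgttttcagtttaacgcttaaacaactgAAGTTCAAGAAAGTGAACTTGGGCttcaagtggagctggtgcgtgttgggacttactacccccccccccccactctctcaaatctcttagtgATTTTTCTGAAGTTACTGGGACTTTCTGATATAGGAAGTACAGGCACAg
Ms4a6b: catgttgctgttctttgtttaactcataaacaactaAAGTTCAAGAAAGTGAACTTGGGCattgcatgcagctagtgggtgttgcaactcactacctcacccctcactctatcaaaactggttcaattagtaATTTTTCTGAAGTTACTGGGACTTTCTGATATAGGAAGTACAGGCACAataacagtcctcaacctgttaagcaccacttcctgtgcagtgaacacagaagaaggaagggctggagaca

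The shared runs are 24 and 48 bases long, and the longer one begins at -49 in Ms4a6c and at -118 in Ms4a6b, counted from the start site. The 300-base windows from 250 before to 50 after the start were 85.3% identical over 225 aligned bases, and no other pair of the members' windows shared a run of more than 9 bases. The start site of Ms4a6b used by RefSeq lies 2047 bases inside the gene as the table gives it, and that of Ms4a4c 2891 bases inside. Each window was searched on both strands for 6 motifs: the interferon-stimulated response element (ISRE), TTCNNNGAA (GAS), GAGGAA (PU.1 core), TGANTCA (AP-1), GTAAACA (FOXO) and the NF-kB site. No member's window held the ISRE letters, which stood in 3.44% of 32851 RefSeq windows of the same length. A shorter form, GAAANNGAA, which was chosen after the sequences were seen and overlaps the ISRE letters, was found in 8.56% of windows. The 24-base run above holds it as GAAAGTGAA, at -133 in Ms4a6c and at -206 in Ms4a6b, and both Ms4a7 windows held a match as well.

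The same stretch of Ms4a4c (chr19:11407411-11407660, plus strand) and of Ms4a4a (chr19:11375238-11375487, plus strand) is shown because these neighbours stood in different orders over the groups; capitals mark motif matches.
Ms4a4c: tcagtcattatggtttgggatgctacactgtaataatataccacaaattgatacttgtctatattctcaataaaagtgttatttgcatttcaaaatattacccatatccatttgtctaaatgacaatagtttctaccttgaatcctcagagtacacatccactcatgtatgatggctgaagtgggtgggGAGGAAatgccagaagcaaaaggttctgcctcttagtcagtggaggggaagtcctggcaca
Ms4a4a: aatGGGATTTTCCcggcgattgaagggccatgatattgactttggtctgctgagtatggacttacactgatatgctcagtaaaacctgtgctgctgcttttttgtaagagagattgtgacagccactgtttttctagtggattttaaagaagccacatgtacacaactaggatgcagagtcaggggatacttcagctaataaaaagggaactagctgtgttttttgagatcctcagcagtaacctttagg

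Ms4a4c held the PU.1 core letters at -61, found in 28.3% of all windows, and Ms4a4a the NF-kB letters at -247, found in 1.63%. Their windows shared no run longer than 8 bases. A match describes letters in a window and is not evidence of binding.

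Ms4a4c, a close neighbour of the Ms4a4a gene, had the widest range of the 6, from 3.48 CPM in Trem2+/+ replicate 1 to 1269 CPM in R47H/+ tau replicate 2. It measured 3.48, 8.25 and 9.11 CPM in Trem2+/+ cells and 346, 401 and 427 CPM in Trem2+/+ cells with tau. In R47H/+ cells it was 186, 151 and 138 CPM, and with tau 969.8, 1269 and 875 CPM. MK-2206 cultures held 64.4, 57.4 and 55.5 CPM of Ms4a4c, and 742, 833 and 841 CPM when tau was added. The 6 groups did not overlap with their neighbours in the order of mean levels, from Trem2+/+ through R47H/+ with MK-2206, R47H/+, Trem2+/+ with tau and R47H/+ with MK-2206 and tau to R47H/+ with tau. Every library with tau was thus above every library without it.

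Ms4a4a, the mouse counterpart of human MS4A4A, which is found in alternatively activated macrophages and associates with the beta-glucan receptor Dectin-1, was at lower levels and in another order. In Trem2+/+ cells it measured 33.6, 33.9 and 24.6 CPM, and with tau 58.4, 49.3 and 52.2 CPM. R47H/+ cells held 118.5, 123 and 128 CPM, and 51.5, 26.9 and 46.6 CPM with tau. The addition of MK-2206 gave 159.6, 175 and 162 CPM, or 67.2, 89.8 and 82.5 CPM together with tau. The 3 highest groups, R47H/+ with MK-2206 and tau, R47H/+, and R47H/+ with MK-2206, stood apart from each other and from the rest. The 3 lowest, Trem2+/+, R47H/+ with tau and Trem2+/+ with tau, overlapped with their neighbours. The lowest value in both Trem2+/+ and R47H/+ with tau came from the library in which short genes were high, although Ms4a4a is the shortest of the 6 at 836 bp.

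The ratio of Ms4a4c to Ms4a4a in the same library showed the split between these neighbours. It lay between 0.104 and 0.371 in Trem2+/+ cells, between 1.07 and 1.57 in R47H/+ cells and between 0.327 and 0.403 in R47H/+ cells with MK-2206. With tau it was 5.93 to 8.19, 18.8 to 47.3 and 9.28 to 11.04 in the same order. The 47.3 came from R47H/+ tau replicate 2, 1 of the 2 shifted libraries, and the other 2 libraries of that group were both at 18.8. Per kb of gene length, Ms4a4a had the higher mean in all 3 groups without tau (147 against 90.5 CPM per kb in R47H/+ cells) and Ms4a4c in all 3 with tau.

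**Figure D1:**
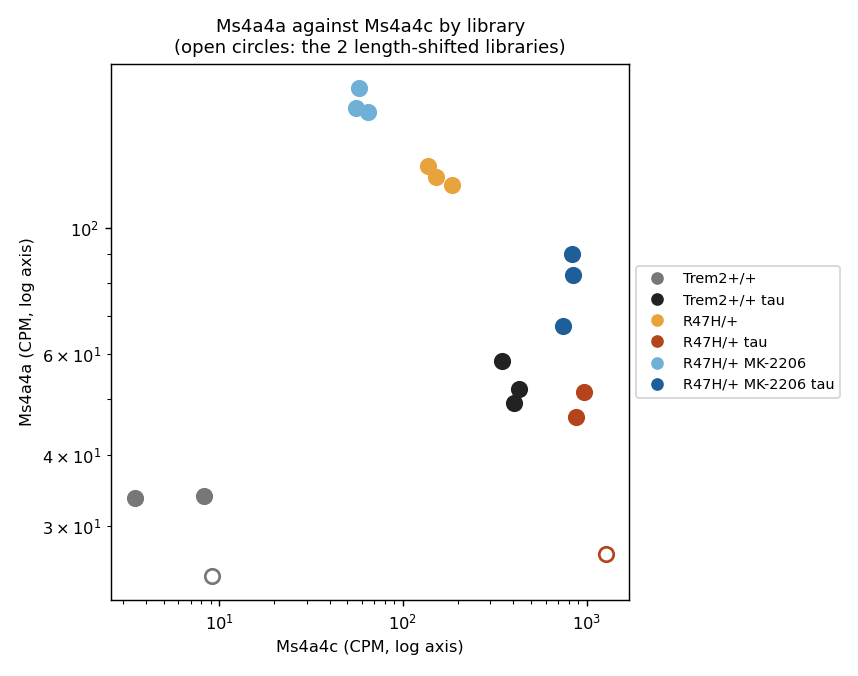
Level of Ms4a4a (vertical) against Ms4a4c (horizontal) in each of the 18 libraries, both in CPM on log axes, with 1 colour per group and open circles for the 2 libraries with a shift by gene length. Tau libraries lie to the right, at 346 to 1269 CPM of Ms4a4c, and the highest Ms4a4a values, 159.6 to 175 CPM, are those of R47H/+ cells with MK-2206 and no tau.

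The 3 Ms4a6 genes are mouse counterparts of the human gene MS4A6A. Ms4a6c measured 50.7, 63.0 and 38.7 CPM in Trem2+/+ cells and 304, 349 and 341 CPM with tau. R47H/+ cells gave 213, 201 and 202 CPM for Ms4a6c, and 449, 389 and 435 CPM with tau. Under MK-2206 it was 156, 142 and 153 CPM, and 413, 443 and 434 CPM with tau. The R47H/+ tau groups without and with MK-2206 overlapped, and the other neighbours in the order of Ms4a6c levels stood apart.

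Ms4a6b, the next member along the chromosome, measured 18.8, 22.8 and 23.7 CPM in Trem2+/+ cells and 223, 242 and 269.7 CPM with tau. It was at 207, 198.5 and 173 CPM in R47H/+ cells and at 475.5, 471 and 416 CPM with tau. With the inhibitor Ms4a6b was at 128, 108 and 111 CPM, and at 365, 405 and 425 CPM with tau. Its groups stood in the same order as those of Ms4a4c, and only the highest pair, R47H/+ with tau with and without MK-2206, overlapped.

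Ms4a6d, reported to form a complex with the complement receptor VSIG4 in mouse macrophages, was the most abundant of the 3. It measured 176, 204 and 280.2 CPM in Trem2+/+ cells and 756.5, 809.7 and 904 CPM with tau. R47H/+ cells held 453, 427 and 404 CPM of Ms4a6d, and 1142, 1301 and 993.5 CPM with tau. The values under MK-2206 were 391, 346.5 and 348 CPM, or 973, 1077 and 1089 CPM together with tau. The order of its groups was again that of Ms4a4c, with an overlap of the highest pair.

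Ms4a7, which in the brain is known as a gene of border macrophages more than of microglia, was present at 205 CPM or more in every library. In Trem2+/+ cells it measured 205, 252 and 757 CPM, and with tau 448, 479.7 and 414.5 CPM. Values of 477.5, 474.5 and 456.5 CPM were found in R47H/+ cells and 663, 1069 and 685 CPM with tau. MK-2206 gave 341, 328.5 and 318 CPM, or 570.4, 587.5 and 639 CPM together with tau. The 757 and 1069 CPM belong to the 2 libraries with a shift by gene length, and both are the highest of their group, although Ms4a7 at 4453 bp is a long gene. Without them its mean was 229 CPM in Trem2+/+ and 674 CPM in R47H/+ cells with tau, against 405 ± 306 and 806 ± 228 CPM (SD, n = 3) with them.

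**Figure D2:**
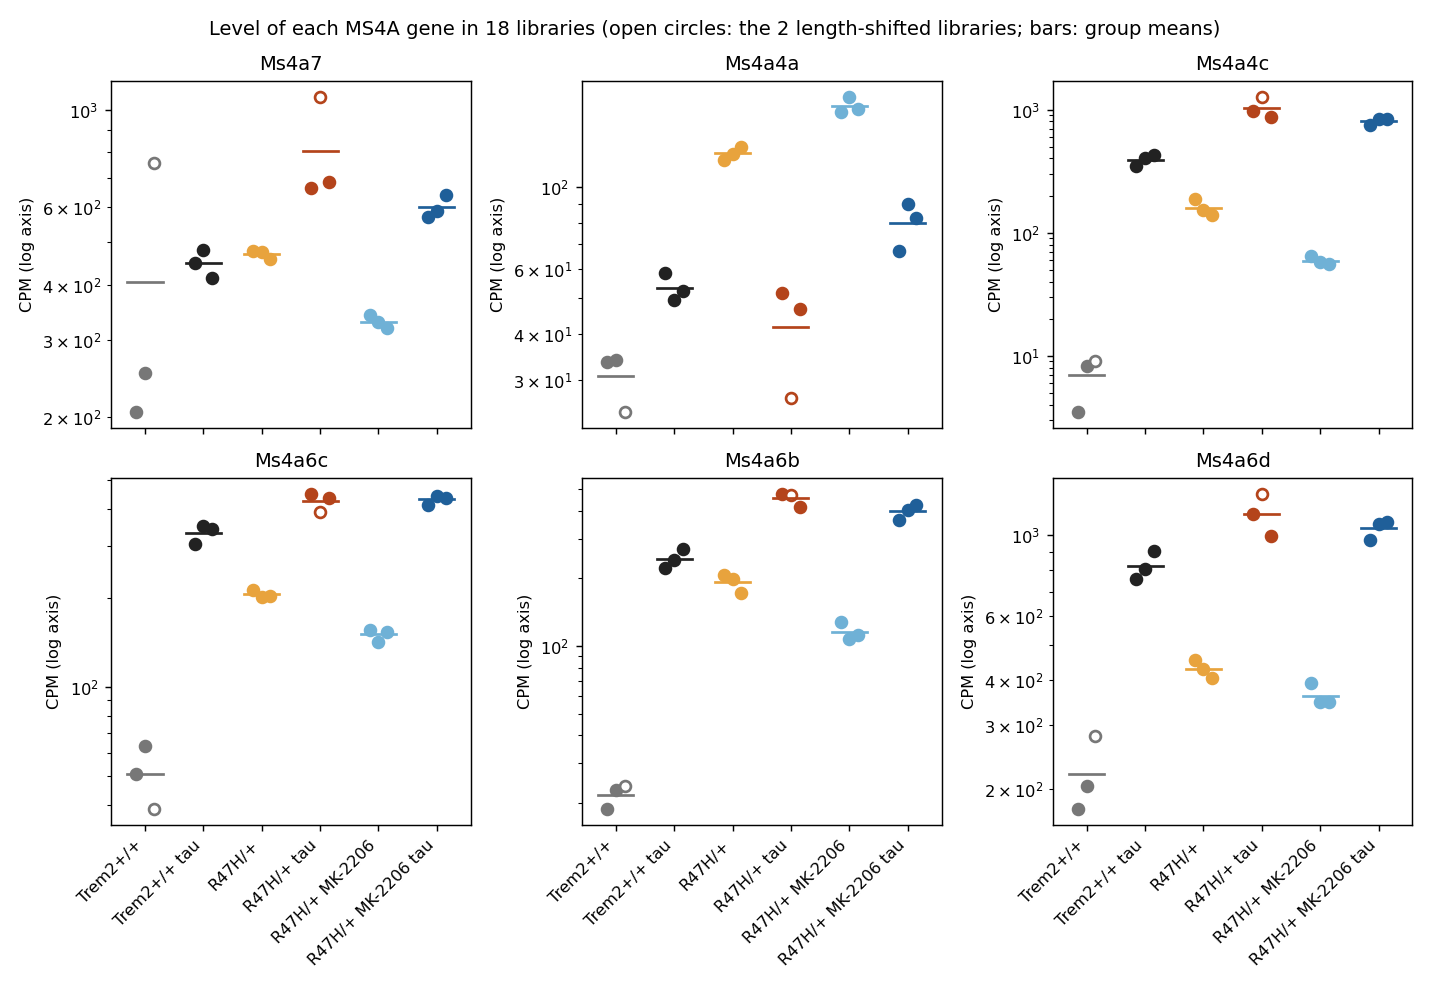
Level of each of the 6 genes (CPM, log axis) in every library by group, with bars at the group means and open circles for the 2 libraries with a shift by gene length. Ms4a4c, Ms4a6c, Ms4a6b and Ms4a6d are lowest in Trem2+/+ cells and highest with tau, Ms4a4a is highest in R47H/+ cells with MK-2206 at 159.6 to 175 CPM, and the open circles of Ms4a7 lie at 757 and 1069 CPM.

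Levels of different genes were compared per kb of gene length. Ms4a6d had the highest CPM per kb of the 6 in 16 of 18 libraries, from 127 ± 31.1 (SD, n = 3) in Trem2+/+ cells to 660.3 ± 88.7 in R47H/+ cells with tau. Ms4a6b was the lowest in 11 libraries, among them all 3 of R47H/+, at 43.0 ± 4.005 CPM per kb, and all 3 of Trem2+/+ with tau, at 54.6 ± 5.24. In the Trem2+/+ libraries without tau Ms4a4c was the lowest, at 3.97 ± 1.73 CPM per kb, but it rose past all others except Ms4a6d with tau, to 593 ± 118 CPM per kb in R47H/+ cells. Ms4a4a, at 147 ± 5.90 CPM per kb in R47H/+ cells and 198 ± 10.2 with MK-2206, was second to Ms4a6d there by mean. In R47H/+ MK-2206 replicate 2, however, Ms4a4a was above Ms4a6d, at 209.8 against 199.7 CPM per kb. Ms4a4a was the lowest of the 6 per kb in 4 libraries, the 3 of R47H/+ with tau and R47H/+ MK-2206 tau replicate 1.

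The summed CPM of the 6 genes was 735 ± 348 (SD, n = 3) in Trem2+/+ and 1578 ± 77.0 in R47H/+ cells. With tau the sums were 2292 ± 140.5 and 3909 ± 555, and R47H/+ cells with MK-2206 held 1182 ± 49.6 without and 3358 ± 201 with tau. Ms4a4c made up 0.977% of the sum in Trem2+/+ cells and 26.4% in R47H/+ cells with tau. Ms4a4a, by contrast, made up 14.1% in R47H/+ cells with MK-2206 and 1.11% in R47H/+ cells with tau. The mean share of Ms4a7 was 50.7% in Trem2+/+ cells and 17.8% in R47H/+ cells with MK-2206 and tau. In Trem2+/+ replicates 1, 2 and 3 it was 42.1, 43.2 and 66.8%. Replicate 3, 1 of the 2 shifted libraries, also had the highest sum of that group, 1133 CPM against 488 and 584.

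The comparison of genotypes without tau sets R47H/+ cells beside Trem2+/+ cells with no fibrils added. The labels write the alleles as hTrem2 and mTrem2, so the R47H variant and any difference between a human and a mouse Trem2 allele cannot be told apart. In R47H/+ cells 5 of the 6 genes were called higher than in Trem2+/+ cells and none lower, against 15.1% of all genes called and 8.22% called higher. The rule drew on this contrast, so nothing is read from the count. Ms4a4c was higher by a log2 change of 4.52 (SE 0.28), which is 22.9-fold, and Ms4a6b by 3.15 (SE 0.13), 8.87-fold. Ms4a6c and Ms4a4a rose by 2.02 (SE 0.14) and 2.003 (SE 0.20). Ms4a6d rose by 0.96 (SE 0.15), and its ranges were 404 to 453 against 176 to 280.2 CPM. Its call was lost in a fit of these groups alone. For Ms4a7 the log2 change was 0.21 (SE 0.34) and was not called, and it was 1.04 and called without the 2 libraries with a shift by gene length, a fit in which 28.9% of 13498 genes were called. The median of the 6 changes was 2.01, beside -0.02 over all genes, and the ranges of the 5 called genes did not overlap, as held for 31.4% of all genes.

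With tau in both genotypes, R47H/+ cells stood above Trem2+/+ cells with tau in 2 called genes, against 9.5% of all genes called and 5.25% called higher. Ms4a4c was higher by 1.41 (SE 0.24) and Ms4a6b by 0.89 (SE 0.12). The changes of Ms4a7, Ms4a6d and Ms4a6c were 0.85 (SE 0.34), 0.48 (SE 0.15) and 0.36 (SE 0.13) and were not called, although their ranges did not overlap, which held for 5 members and for 33.7% of all genes. All 3 were called without the 2 shifted libraries, where 23.3% of genes were called. Ms4a4a had a change of -0.36 (SE 0.19), not called, with overlapping ranges. The median over the 6 genes was 0.66.

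The comparison of tau with no tau in Trem2+/+ cells shows the answer of the wild-type cells. Of the 6 genes, 5 were called higher with tau, against 26.5% of all genes called and 14.4% called higher, and the ranges of these 5 were apart, as were those of 36.1% of all genes. Ms4a4c rose by 5.82 (SE 0.29), 56.5-fold, the largest change of any member in any comparison here. Ms4a6b rose by 3.49 (SE 0.13), Ms4a6c by 2.70 (SE 0.14) and Ms4a6d by 1.90 (SE 0.15). Ms4a4a rose by 0.79 (SE 0.19), 1.73-fold, a call that was lost with an offset for gene length. Ms4a7 was not called at 0.14 (SE 0.34), and without the 2 shifted libraries it was called at 0.95, in a fit that called 41.4% of genes. The median of the members was 2.30, beside -0.04 over all genes. The Trem2+/+ libraries without tau serve in this comparison and in that of genotypes without tau, so the 2 sets of changes are not independent.

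In R47H/+ cells tau went with 4 members called higher and 1 lower, against 27.6% of all genes called, 15% higher and 12.6% lower. Ms4a4c rose by 2.71 (SE 0.25), Ms4a6d by 1.42 (SE 0.15), Ms4a6b by 1.24 (SE 0.12) and Ms4a6c by 1.04 (SE 0.14). Ms4a4a fell by 1.56 (SE 0.20), from 118.5 to 128 CPM down to 26.9 to 51.5 CPM. Without the 2 shifted libraries it fell by 1.34. Ms4a7 had a change of 0.78 (SE 0.34), not called, and of 0.51, called, without them, where 42.8% of genes were called. All 6 ranges were apart, as were those of 49.8% of all genes.

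With MK-2206 present, tau in R47H/+ cells went with the same directions, 4 called higher and 1 lower, against 25.6% of all genes called, 14.3% higher and 11.3% lower. Ms4a4c rose by 3.77 (SE 0.26), Ms4a6b by 1.78 (SE 0.12), Ms4a6d by 1.53 (SE 0.15) and Ms4a6c by 1.51 (SE 0.14). Ms4a4a fell by 1.05 (SE 0.19). Ms4a7 was at 0.86 (SE 0.34) and was not called, and at 0.85 and called in the fit without the 2 shifted libraries, neither of which belongs to these groups, with 48.0% of genes called there. The 6 ranges were apart, as for 55.6% of all genes.

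The genotypes differed in how far the genes moved with tau on the log2 scale. The difference of the tau changes, R47H/+ minus Trem2+/+, was called lower for 4 of 6 genes, against 5.37% of all genes called and 3.32% called lower. It was -3.11 (SE 0.35) for Ms4a4c, -2.36 (SE 0.27) for Ms4a4a, -2.26 (SE 0.17) for Ms4a6b and -1.66 (SE 0.19) for Ms4a6c. For Ms4a4a the sign of the tau change itself differed, 0.79 in Trem2+/+ and -1.56 in R47H/+ cells. For Ms4a4c, Ms4a6b and Ms4a6c the tau change was positive in both genotypes and smaller on the log2 scale in R47H/+ cells. Their level in R47H/+ cells without tau was already higher. In mean CPM, Ms4a4c went from 6.95 to 391.5 with tau in Trem2+/+ cells and from 158.5 to 1038 in R47H/+ cells. Ms4a6b went from 21.75 to 244.9 and from 192.8 to 454.1, and Ms4a6c from 50.8 to 331.5 and from 205.7 to 424.3. Ms4a6d had a difference of -0.48 (SE 0.21), not called, and of -0.80, called, without the 2 shifted libraries. Ms4a7 had a difference of 0.63 (SE 0.48), not called, that turned to -0.45 and was called without them, in a fit that called 11.9% of genes.

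MK-2206 in R47H/+ cells without tau went with lower calls for Ms4a4c and Ms4a6b, 2 of 6 genes, against 2.55% of all genes called and 1.36% called lower. Ms4a4c fell by 1.42 (SE 0.24), from 138 to 186 CPM down to 55.5 to 64.4 CPM, and stayed above the 3.48 to 9.11 CPM of Trem2+/+ cells. Ms4a6b fell by 0.74 (SE 0.12). Ms4a7, Ms4a6c and Ms4a6d had changes of -0.51 (SE 0.34), -0.45 (SE 0.13) and -0.24 (SE 0.15), and Ms4a4a one of 0.43 (SE 0.19), none of them called. All 6 ranges were apart from those of R47H/+ cells, as were 32.6% over all genes, and Ms4a4a was the member whose libraries with MK-2206 were higher. Without the 2 shifted libraries Ms4a4a was called higher at 0.43, and Ms4a6c and Ms4a7 lower at -0.44 and -0.51, where 13.9% of genes were called.

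With tau present, MK-2206 went with 1 call among the 6, Ms4a4a, against 3.04% of all genes called and 1.64% called higher. Ms4a4a rose by 0.94 (SE 0.19), 1.92-fold, at 67.2 to 89.8 CPM against 26.9 to 51.5 CPM. Without the 2 shifted libraries its change was 0.70 and still called, where 12% of genes were called, whereas the call was lost without R47H/+ MK-2206 tau replicate 2 or 3, in a fit of these groups alone, and with an offset for gene length. Ms4a4c, Ms4a6b, Ms4a6d and Ms4a6c had changes of -0.37 (SE 0.23), -0.19 (SE 0.12), -0.13 (SE 0.15) and 0.02 (SE 0.13), and Ms4a7 of -0.43 (SE 0.34), none called. The 95% intervals were -0.27 to 0.30 for Ms4a6c, -0.45 to 0.18 for Ms4a6d and -0.44 to 0.06 for Ms4a6b. The ranges of 3 members were apart, beside 27.7% of all genes.

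The difference of the tau changes with and without MK-2206 in R47H/+ cells was called for 0 of 6 genes by edgeR and for 0 by DESeq2, against 0.377% of all genes by edgeR, with 3 members, Ms4a4c, Ms4a6b and Ms4a6c, at an unadjusted p under 0.05. It was 1.06 (SE 0.33) for Ms4a4c, 0.55 (SE 0.17) for Ms4a6b and 0.47 (SE 0.19) for Ms4a6c, and these 3 were called without the 2 shifted libraries, where 4.94% of genes were called. Ms4a4a was at 0.51 (SE 0.27), Ms4a6d at 0.11 (SE 0.21) and Ms4a7 at 0.08 (SE 0.47).

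**Figure D3:**
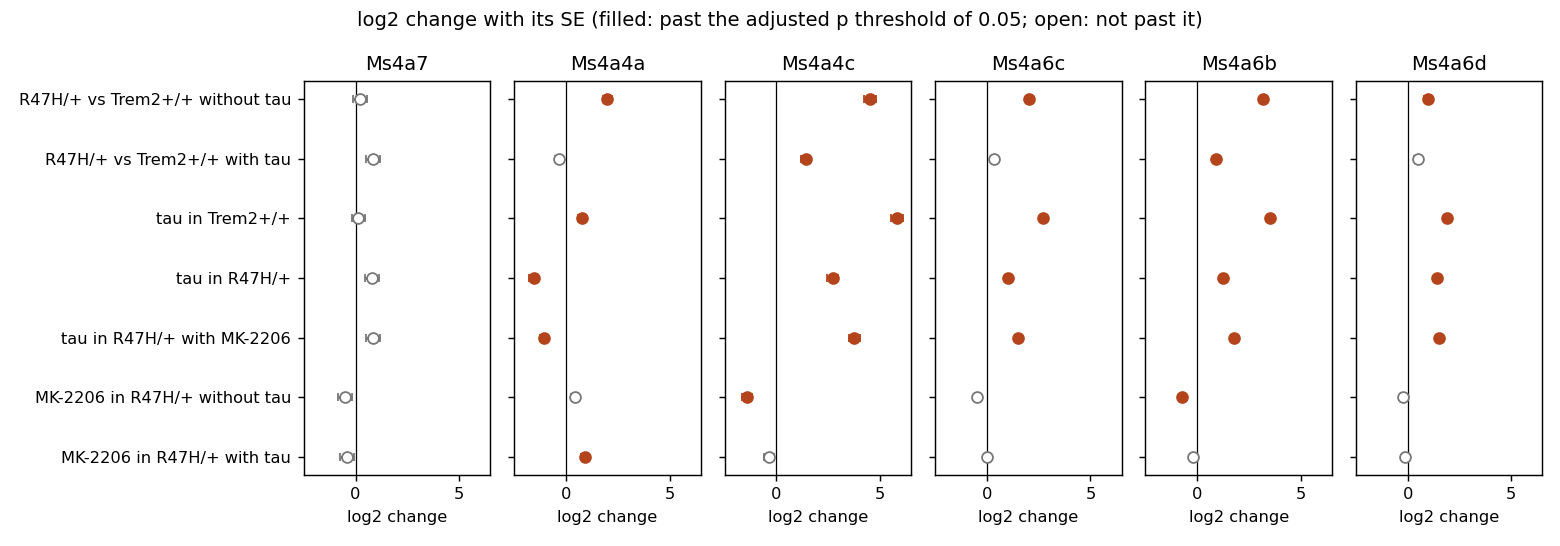
Log2 change of each gene (1 panel per gene) with its SE in the 7 pairwise comparisons, filled where the adjusted p was under 0.05 and open where it was not. Ms4a4c has the widest span, from -1.42 with MK-2206 to 5.82 with tau in Trem2+/+ cells, Ms4a4a lies left of 0 for tau in R47H/+ cells, and Ms4a7 is open throughout.

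The other MS4A genes and the related Tmem176a and Tmem176b formed a list of 15, all in the table. Of these 6 had no count in any library, among them Ms4a2 and Ms4a3, and 4 were counted but failed the filter, with totals over all libraries of 86 counts for Ms4a4d, 45 for Ms4a1, 3 for Ms4a15 and 1 for Ms4a12. The gene of CD20, Ms4a1, thus had at most 9 counts in a library. The 5 that passed were Ms4a14, Ms4a8a, Ms4a4b, Tmem176a and Tmem176b, and the list was written with earlier results known.

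Ms4a14, the neighbour of Ms4a7 on the minus strand, measured 12.7, 14.3 and 6.61 CPM in Trem2+/+ and 32.0, 37.6 and 43.3 CPM with tau. It was at 28.1, 26.0 and 30.5 CPM in R47H/+ cells and at 71.5, 52.2 and 64.6 CPM with tau. MK-2206 gave 20.8, 19.02 and 18.7 CPM, and 52.1, 56.1 and 57.1 CPM with tau. Its groups thus stood in the order of Ms4a4c. It was called higher in R47H/+ cells without tau by 1.32 (SE 0.21) and with tau by 0.74 (SE 0.20), and with tau by 1.74 (SE 0.21) in Trem2+/+ cells, 1.15 (SE 0.20) in R47H/+ cells and 1.496 (SE 0.21) in R47H/+ cells with MK-2206. Ms4a4b, at 0.321 to 2.74 CPM, was called higher with tau by 1.97 (SE 0.35), 1.37 (SE 0.32) and 1.35 (SE 0.32) in the same 3 backgrounds; a part of its transcript is shared with Ms4a4c. Tmem176a and Tmem176b, tetraspan proteins of endosomes in myeloid cells that lie on chromosome 6, were called higher with tau in R47H/+ cells, by 1.26 (SE 0.25) and 1.25 (SE 0.24), and with MK-2206, by 1.65 (SE 0.26) and 1.43 (SE 0.24). Ms4a8a, at 0.216 to 3.40 CPM, was not called in any comparison. Of these 5 genes, 2 were called higher with tau in Trem2+/+ cells, beside 26.5% of all genes called. All 5 were called higher without the 2 shifted libraries, Ms4a8a, Tmem176a and Tmem176b included, beside 41.4%. For MK-2206 without tau, 0 of the 5 were called by edgeR and 0 by DESeq2, beside 2.55% of all genes by edgeR. There, 2 were at an unadjusted p under 0.05, and 2 were called lower without those libraries, beside 13.9%.

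**Figure D4:**
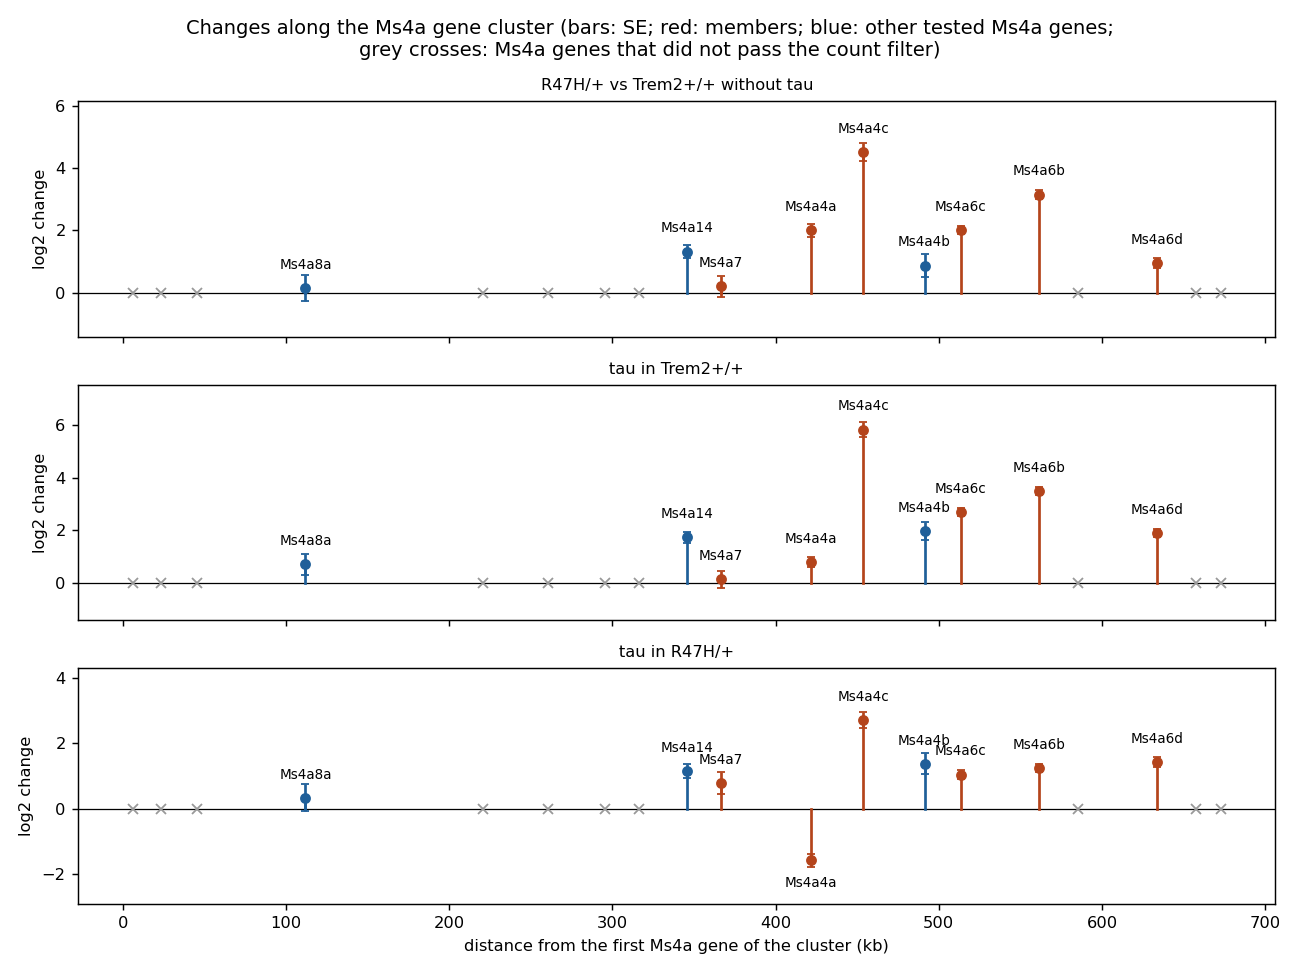
Log2 change with its SE along the Ms4a cluster, by distance in kb from its first Ms4a gene, for R47H/+ against Trem2+/+ without tau and for tau in each genotype; members are red, other tested Ms4a genes blue, and grey crosses mark Ms4a genes that failed the count filter. Ms4a4c stands highest in each panel, at 4.52, 5.82 and 2.71, and Ms4a4a alone lies below 0, at -1.56 for tau in R47H/+ cells.

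Within 300 kb of the outermost members the annotation holds 23 other protein-coding genes, and 6 of them passed the filter, 3 of them Ms4a genes. Gm8369, which lies between Ms4a6c and Ms4a6b and was at 0.416 to 4.81 CPM, was called higher in R47H/+ cells without tau by 1.60 (SE 0.27) and with tau in Trem2+/+ cells by 2.20 (SE 0.26). Tau also raised it by 1.11 (SE 0.23) in R47H/+ cells and by 1.05 (SE 0.23) with MK-2206. Mrpl16, a mitochondrial ribosomal protein, and Stx3, a syntaxin, were not called in any of the 9 comparisons. Stx3 had changes between -0.18 (SE 0.09) and 0.21 (SE 0.09).

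Genes whose log2 CPM was most like that of each member were sought among 9811 genes over the 18 libraries, which share their 6 groups and the shift by gene length. For Ms4a4c they were Ifit1, Ifi205, Lgals9 and Slfn1, with Pearson's r from 0.995 to 0.997. Ms4a6b was most like Ifi44, Ifit2, Ifi208 and Irgm1 (0.994 to 0.997), and Ms4a6c like Parp12, Iigp1, Irgm2 and Gbp4 (0.996 to 0.998), most of them known as interferon-induced genes. For Ms4a6d the 4 were Aida, Mlkl, Nt5c3 and Il18bp (0.990 to 0.994). Ms4a4a was most like Ncapg2 (0.971), Dna2, Hpse and Gpr157 (0.914), and Ms4a7 like Polb (0.973), Emc3, Pttg1 and Vdac3 (0.960). Spearman's rho gave other genes for Ms4a7, Ms4a4c and Ms4a6b, with 0 of 4 shared, and without the 2 shifted libraries 1 to 3 of the 4 were shared for each member.

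Among themselves, Ms4a4c, Ms4a6b, Ms4a6c and Ms4a6d had r between 0.929 and 0.987 over the 18 libraries. Ms4a7 had r from 0.55 to 0.747 with these 4, and from 0.909 to 0.96 over the 16 libraries without a shift. Ms4a4a had r between -0.29 and 0.236 with the other 5, and between -0.107 and 0.192 over the 16 libraries. These are descriptions of levels over the same groups.

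A list of 25 genes of the type I interferon response, such as Irf7 and Ifi44, is set beside the members. Among the likest genes above, Ifit1 of Ms4a4c, Ifi44 and Ifit2 of Ms4a6b and Gbp4 of Ms4a6c belong to it. None of the likest genes of Ms4a4a, Ms4a6d and Ms4a7 are on the list, which was written with earlier results known. All 25 were called higher in R47H/+ cells without tau, with a median of 2.12, where 15.1% of all genes were called. All 25 were also called higher with tau in Trem2+/+ cells, with a median of 3.22, where 26.5% of all genes were called. With tau in both genotypes 16 were higher in R47H/+ cells (9.5% of all genes called), and 23 without the 2 shifted libraries (23.3%). Tau went with 22 higher in R47H/+ cells (27.6% of all genes called) and 23 higher with MK-2206 (25.6%). Without those libraries these were 24 (42.8%) and 25 (48.0%). MK-2206 without tau went with 6 lower and a median of -0.45 (2.55% of all genes called). Without the 2 libraries, neither of which belongs to these groups, 19 were lower (13.9% of all genes called). MK-2206 with tau had a median of -0.12 and 0 called by edgeR (3.04% of all genes called). There, 2 were at an unadjusted p under 0.05 and 1 was called by DESeq2. Without the 2 shifted libraries 3 of 25 were called lower, beside 12% of all genes called, so nothing is read from that count. The difference of the tau changes between genotypes was called lower for 18 of 25 (5.37% of all genes called), and for 23 without them (11.9%). Examples in the comparison of genotypes without tau were Ifi44, at 4.19 (SE 0.17), and Irf7, the interferon regulatory factor that amplifies the response, at 3.44 (SE 0.14), beside 4.52 for Ms4a4c.

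A list of 10 genes reported as MS4A partners or in TREM2 shedding had 9 that passed the filter. In R47H/+ cells without tau 2 were called higher and 2 lower, beside 15.1% of all genes called. Without the 2 shifted libraries 3 were higher and 4 lower, beside 28.9%. Vsig4, the complement receptor reported to bind MS4A6D, fell by 2.58 (SE 0.27), whereas Ms4a6d rose by 0.96. Grn, the lysosomal protein progranulin, rose by 0.88 (SE 0.10) and Clec7a, the gene of Dectin-1, by 0.46 (SE 0.13). The row of mouse Trem2 was lower by 1.44 (SE 0.25), and its change lay between -1.61 and -1.04 with single libraries left out. The highest Trem2+/+ value, 1894 CPM, came from the shifted replicate 3. Whether reads of a human Trem2 sequence are counted in the mouse row is not given. A lower row and lower expression of Trem2 thus cannot be told apart here. Tau in Trem2+/+ cells went with 1 higher gene, Grn (0.71, SE 0.10), and 3 lower, Trem2 (-1.51, SE 0.25), Vsig4 (-1.25, SE 0.25) and Clec7a (-0.60, SE 0.13), beside 26.5% of all genes called. In R47H/+ cells tau went with 1 higher gene, Fcer1g (0.97, SE 0.24), the gene of an Fc receptor signalling chain, and 4 lower, among them Vsig4 (-1.98, SE 0.34), Trem2 (-1.41, SE 0.25) and Clec7a (-0.50, SE 0.13), beside 27.6% of all genes. Without the 2 shifted libraries these counts were 2 higher and 3 lower in Trem2+/+ cells and 3 higher and 5 lower in R47H/+ cells. Of all genes, 41.4% and 42.8% were called there. With MK-2206 present tau went with 3 higher, Grn and Adam17 among them, and 2 lower, Trem2 and Clec7a, beside 25.6% of all genes. Without those libraries 3 were higher and 4 lower, beside 48.0%. MK-2206 without tau went with 1 call, a further fall of Vsig4 by 2.69 (SE 0.37), beside 2.55% of all genes. Without those libraries 2 were higher and 2 lower, beside 13.9%. The sheddase gene Adam17 was called higher with tau in R47H/+ cells with MK-2206, by 0.46 (SE 0.12).

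Of 15 genes of alternative macrophage activation, the state in which human MS4A4A is known to be high, 13 passed the filter. Tau in R47H/+ cells went with 7 lower and 2 higher, beside 27.6% of all genes called, among them Mrc1, the mannose receptor (-1.25, SE 0.16), Pparg (-1.51, SE 0.16) and F13a1 (-3.36, SE 0.27) lower and Tgm2 higher (2.41, SE 0.22), beside -1.56 for Ms4a4a. Tau in Trem2+/+ cells went with 6 lower and 1 higher, beside 26.5% of all genes called, with Arg1 at -2.16 (SE 0.16), although Ms4a4a was called higher there. In R47H/+ cells without tau 7 were lower and 2 higher, beside 15.1% of all genes called, with Arg1 at -1.44 (SE 0.16), and Ms4a4a again was higher. MK-2206 without tau went with higher Egr2 (1.33, SE 0.18) and Arg1 (1.101, SE 0.16) and lower F13a1 (-1.04, SE 0.22), beside 2.55% of all genes called, where Ms4a4a had a change of 0.43 that was not called. Without the 2 shifted libraries, 9 were lower and 3 higher for tau in R47H/+ cells, beside 42.8% of all genes called. For tau in Trem2+/+ cells the lower and higher counts were 7 and 3, beside 41.4%. They were 8 and 3 for genotype without tau, beside 28.9%, and 3 and 3 for MK-2206 without tau, beside 13.9%.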

How the data were processed

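The authors deposited a table of raw read counts per gene with gene coordinates and lengths. Per the submitters' processing notes, STAR, featureCounts and DESeq2 were used with GRCm38/mm10. Versions, settings, strand counting and the handling of reads that fit several genes are not given in the sources used here. Per the labels' protocols, reads were paired and 150 nt long.

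Counts were tested with edgeR 4.0.16 in R 4.3.3: filterByExpr, TMM scaling, 1 term per group over all 18 libraries (12 residual df), a two-sided quasi-likelihood F-test and Benjamini-Hochberg adjustment over 13267 genes, with a threshold of 0.05. The fit was tested on simulated data. Members and lists were chosen with earlier results of these data known. Named were the members, the other family genes, Trem2, the 4 genes most correlated with each member (log2 CPM, prior count 2, mean of at least 1), up to 4 genes per list by smallest p, and up to 4 neighbours. Alternatives were RLE scaling, no count filter, the replicate number as a block, the compared groups alone, DESeq2 1.42.0, each library left out, and, chosen after seeing the data, both libraries with a shift by gene length left out and an offset for gene length. No replicates were alike within sampling noise: the smallest chi-square per gene between replicates was 3.33.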

Additional observations from a re-analysis of the deposited data

Results flagged for a closer look

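The change with tau differed between the genotypes for 4 of the 6 genes in edgeR's test of the difference itself (R47H/+ minus Trem2+/+). The difference on the log2 scale was -3.11 for Ms4a4c, -2.36 for Ms4a4a, -2.26 for Ms4a6b and -1.66 for Ms4a6c. The genes were chosen with results of these libraries known, so these values describe them. Without the 2 libraries with a shift by gene length the values were -3.49, -1.99, -2.35 and -1.44 in the same order.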

How the results depend on the processing

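Of 1350 values of the 6 genes' changes and counts under alternatives, 1283 kept their direction and side of the threshold, 49 passed the threshold only under the alternative, 6 no longer passed it and 12 changed sign. For R47H/+ against Trem2+/+ with tau, 2 members were called (9.5% of all genes), and 4 by DESeq2. Without both libraries with a shift by gene length 5 were called (23.3% of all genes). With single libraries left out the count was 2 to 5 (5 without Trem2+/+ replicate 3). For MK-2206 without tau the 2 calls (2.55% of all genes) became 6 in the compared groups alone and 5 without both shifted libraries (13.9%). With 1 library left out the count was 2 to 4 (4 without Trem2+/+ replicate 3). For MK-2206 with tau the 1 call (3.04% of all genes) became 0 in the compared groups alone and with the offset for gene length. With 1 library left out the count was 0 to 1 (0 without R47H/+ MK-2206 tau replicate 2 or 3). For the difference of tau changes with and without MK-2206, 0 members were called (0.377% of all genes). The count was 1 in the compared groups alone, 1 with the length offset and 3 without both shifted libraries (4.94% of all genes). With 1 library left out it was 0 to 1 (1 without Trem2+/+ replicate 1 or 3). The share of all genes called under the other alternatives is not given here, so nothing is read from these counts.

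Ms4a7 turned in sign when single libraries were left out: -0.11 to 1.02 for genotype without tau, -0.18 to 0.93 for tau in Trem2+/+, -0.15 to 0.97 for the difference of tau changes between genotypes (-0.45 without both shifted libraries) and -0.036 to 0.34 for that with and without MK-2206. The change of Ms4a6c with MK-2206 and tau ranged from -0.0385 to 0.0622 and was -0.0366 without both shifted libraries, and that of Ms4a6d was 0.022 with the length offset. The cause was not tested. As a block, the replicate number left the count of members called at 5, 2, 5, 5, 5, 2, 1, 4 and 0 over the 9 comparisons. The numbers did not pair the samples: of 45 correlations of deviations, from -0.634 to 0.49, 4 were above 0.1, and 4 of 18 libraries correlated best with their own number. With 3 libraries a group, small changes of Ms4a7 could not be told from the spread in Trem2+/+ cells.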
